A study of Rattus norvegicus with 14 samples.

Results

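Heat shock genes of the cytosol and of the mitochondria were measured in rat liver on 3 diets: Hspa1b, Hspa8, Hspa9, Hsp90aa1, Hsp90ab1, Dnaja1, Stip1, Hspb1, Hspd1 and Hspe1. Every probe set with 1 of these 10 genes among its platform symbols, of 5147 symbols on the array, was taken. This gave 28 of the 8740 probe sets that are not controls. Of these 28, 24 passed the filter on dim signals (a mean above 14.3 units) and were among the 5133 probe sets tested. RNA came from the left lateral lobe of the liver, taken at necropsy, and was hybridised to 14 Affymetrix rat oligonucleotide arrays. Rats on the diet labelled Mg++ deficient gave 4 arrays (numbered 11 to 14), those on the diet labelled MG++ supplemented gave 5 (1 to 5), and those on the standard diet gave 5 (6 to 10). The labels give no strain, sex, age, magnesium content or time on the diet, nor whether the arrays of a diet came from different rats. The p-values therefore cover the spread among arrays, which may be technical. Supplemented array 5, standard array 10 and deficient array 13 stood apart in earlier work on these data, by rank correlation with the other arrays or by RNA quality, and results that rest on them are given with and without them.

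Heat shock proteins are molecular chaperones. Hsp70 proteins (Hspa1b, Hspa8 and, in the mitochondrial matrix, Hspa9) bind unfolded stretches of other proteins and release them in cycles of ATP use, helped by J-proteins such as Dnaja1. Stip1 hands client proteins from Hsp70 to Hsp90 (Hsp90aa1 and Hsp90ab1), Hspb1 is a small heat shock protein that holds misfolded proteins without using ATP, and Hspd1 with its lid Hspe1 forms the folding chamber of the mitochondrial matrix. Under protein damage the transcription factor Hsf1 binds heat shock elements, which are repeats of the letters GAA in alternating orientation, and the stress-inducible members (Hspa1b most of all) are transcribed strongly, whereas Hspa8 and Hsp90ab1 are made in most cells at all times.

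The platform did not keep all of these genes apart. Of the 28 probe sets 18 carried 1 symbol and 10 carried several. Every Hspa1b probe set was also assigned to its near-identical copy Hspa1a, every Hspa8 probe set to Haus8l2, and 2 of the Hsp90aa1 probe sets to Hsp90aa1-ps17, so values are given for the pairs Hspa1a/Hspa1b, Hspa8/Haus8l2 and Hsp90aa1/Hsp90aa1-ps17 and for neither gene of a pair alone. One more probe set of Hsp90aa1 carried 10 symbols and one more of Hspb1 also carried Asb2. These last are counted among the 24 tested probe sets but given to no gene. The other 7 genes had probe sets of their own. Probe sets of a gene or pair are numbered by falling mean signal, and probe set 1 represents it.

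The promoters of 8 of the 10 genes were in the RefSeq promoter table of the rat build GRCr8, which covers 250 bases before and 50 bases after each annotated start. The windows of Hspa8, Dnaja1, Hspe1, Hspb1 and Hsp90ab1 are shown, so that the elements of the genes whose signals are compared below can be seen. Capitals mark the letters GAANNTTC (its own reverse complement, here the inward core) and TTCNNGAA (likewise its own reverse complement, the outward core), alone or joined into the 3-part element on either strand, which is GAANNTTC followed after any pair of bases by GAA. GAANNTTC and the 3-part element were searched as written in the design, and TTCNNGAA was added after the sequences had been seen. Both cores overlap inside a 3-part element.
Hspa8 (chr8:50080264-50080563, + strand): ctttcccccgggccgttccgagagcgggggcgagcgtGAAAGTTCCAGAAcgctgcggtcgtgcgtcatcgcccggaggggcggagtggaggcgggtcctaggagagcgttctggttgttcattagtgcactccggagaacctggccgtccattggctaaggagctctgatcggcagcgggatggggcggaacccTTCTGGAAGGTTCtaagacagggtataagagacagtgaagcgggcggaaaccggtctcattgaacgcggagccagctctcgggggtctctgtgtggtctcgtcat
Dnaja1 (chr5:60638154-60638453, + strand): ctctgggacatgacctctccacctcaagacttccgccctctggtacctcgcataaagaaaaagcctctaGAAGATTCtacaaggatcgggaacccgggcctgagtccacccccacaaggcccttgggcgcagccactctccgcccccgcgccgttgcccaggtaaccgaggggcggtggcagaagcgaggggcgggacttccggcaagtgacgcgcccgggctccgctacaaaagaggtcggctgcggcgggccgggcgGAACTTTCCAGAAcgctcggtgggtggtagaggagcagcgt
Hspe1 (chr9:64084077-64084376, + strand): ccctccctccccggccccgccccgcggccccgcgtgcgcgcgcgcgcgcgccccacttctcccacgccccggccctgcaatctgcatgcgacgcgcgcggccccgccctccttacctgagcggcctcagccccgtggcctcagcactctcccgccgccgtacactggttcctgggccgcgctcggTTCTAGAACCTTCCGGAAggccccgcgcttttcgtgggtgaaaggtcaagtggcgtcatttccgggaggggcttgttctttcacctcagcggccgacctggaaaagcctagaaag
Hspb1 (chr12:26432252-26432551, - strand): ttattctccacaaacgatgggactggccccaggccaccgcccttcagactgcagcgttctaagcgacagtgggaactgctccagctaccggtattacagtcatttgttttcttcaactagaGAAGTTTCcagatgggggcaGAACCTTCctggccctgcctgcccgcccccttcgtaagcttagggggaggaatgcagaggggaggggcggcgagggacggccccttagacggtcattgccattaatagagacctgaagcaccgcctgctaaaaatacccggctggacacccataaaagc
Hsp90ab1 (chr9:22930173-22930472, + strand): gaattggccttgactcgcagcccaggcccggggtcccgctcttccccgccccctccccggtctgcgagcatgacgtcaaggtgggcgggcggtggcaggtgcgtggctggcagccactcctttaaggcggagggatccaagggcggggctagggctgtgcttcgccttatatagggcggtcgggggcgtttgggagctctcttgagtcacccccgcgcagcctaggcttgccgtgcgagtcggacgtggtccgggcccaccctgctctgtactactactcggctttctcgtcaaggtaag
Hspa8 held 2 copies of the 3-part element, starting 213 and 55 bases before the annotated start, and Dnaja1 held 1 that began 9 bases after it. Hspe1 and Hspd1, which lie head to head, share 211 bases of their windows, and the same joined element lies in both, 65 bases before the Hspe1 start and 242 bases before the Hspd1 start. Hspb1 held only 2 inward cores, 129 and 109 bases before its start, and Hsp90ab1 held no such letters in this window. GAANNTTC was present in 6 of the 8 promoters and in 8.59% of all 33469 promoters of the table, and the 3-part element in 4 of the 8 (Hspa8, Dnaja1, Hspd1 and Hspe1) and in 0.798% of all. TTCNNGAA was present in 6 of the 8 and in 8.77% of all, and either core in 7 of the 8 and in 15.9% of all. A match of letters is a description and not a measured binding site.

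**Figure D1:**
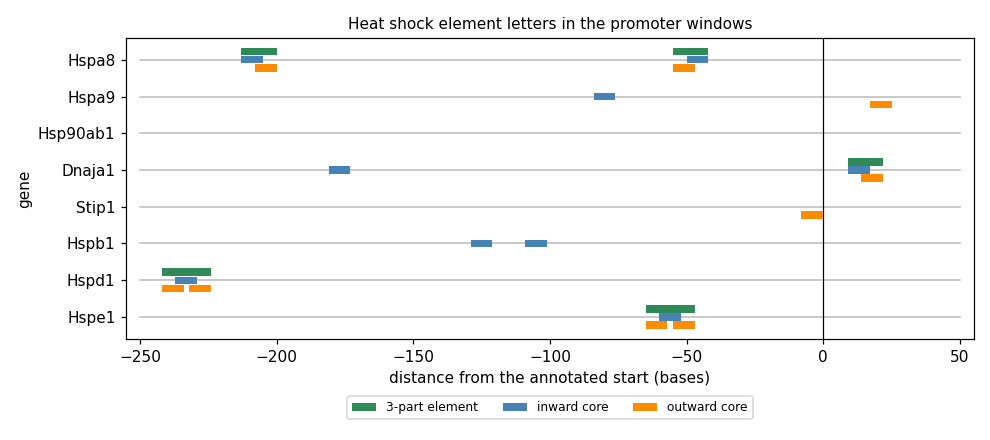
Positions of the heat shock element letters in the promoter windows of 8 genes, as distance in bases from the annotated start (vertical line); green marks the 3-part element, blue the inward core and orange the outward core. Hspa8, Dnaja1, Hspd1 and Hspe1 carry the 3-part element, and the Hsp90ab1 window carries none of the 3.

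No probe set of these genes passed the test in any comparison of diets. limma with Benjamini-Hochberg adjustment over all 5133 probe sets called 0 of 24 for deficient minus standard (0% of all probe sets were called), 0 of 24 for supplemented minus standard (0% of all) and 0 of 24 for deficient minus supplemented (0.0195% of all, or 1 probe set, which was none of these genes). The F-test for any difference among the 3 diets called 0 of 24 (0.0195% of all). Before adjustment, a p under 0.05 was reached by 1 of 24 in deficient minus standard (3.04% of all probe sets), 2 of 24 in supplemented minus standard (8.88% of all), 4 of 24 in deficient minus supplemented (13% of all) and 3 of 24 in the F-test (9% of all). These few belonged to Hspa8/Haus8l2, Hspa9 and Hsp90aa1/Hsp90aa1-ps17. A diet whose arrays all lay on one side of the other diet's arrays was found for 1 of 24 probe sets in deficient minus standard (1.44% of all), 0 of 24 in supplemented minus standard (1.81% of all) and 1 of 24 in deficient minus supplemented (4.95% of all).

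On the deficient diet 20 of the 24 probe sets averaged lower than on the standard diet, where 49.9% of all probe sets did, and their median log2 difference was -0.26, against 0.00059 over all probe sets. Over the 10 genes and pairs, each by its probe set 1, 9 were lower with a median of -0.41. Hspe1 was the 1 that was higher, while its probe set 2 was lower. For supplemented minus standard 14 of 24 probe sets were lower (52.2% of all), with a median of -0.06 against -0.02 over all, and 7 of the 10 genes and pairs were lower (median -0.15). For deficient minus supplemented 15 of 24 were lower (47.5% of all), with a median of -0.29 against 0.02 over all, and 7 of the 10 genes and pairs were lower (median -0.39). These medians have no test, the 3 comparisons share arrays, and probe sets of 1 gene are not independent. Without supplemented array 5, standard array 10 and deficient array 13, 6 of the 10 genes and pairs were lower in each comparison, and the medians over them were -0.21 for deficient minus standard, -0.01 for supplemented minus standard and -0.14 for deficient minus supplemented.

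**Figure D2:**
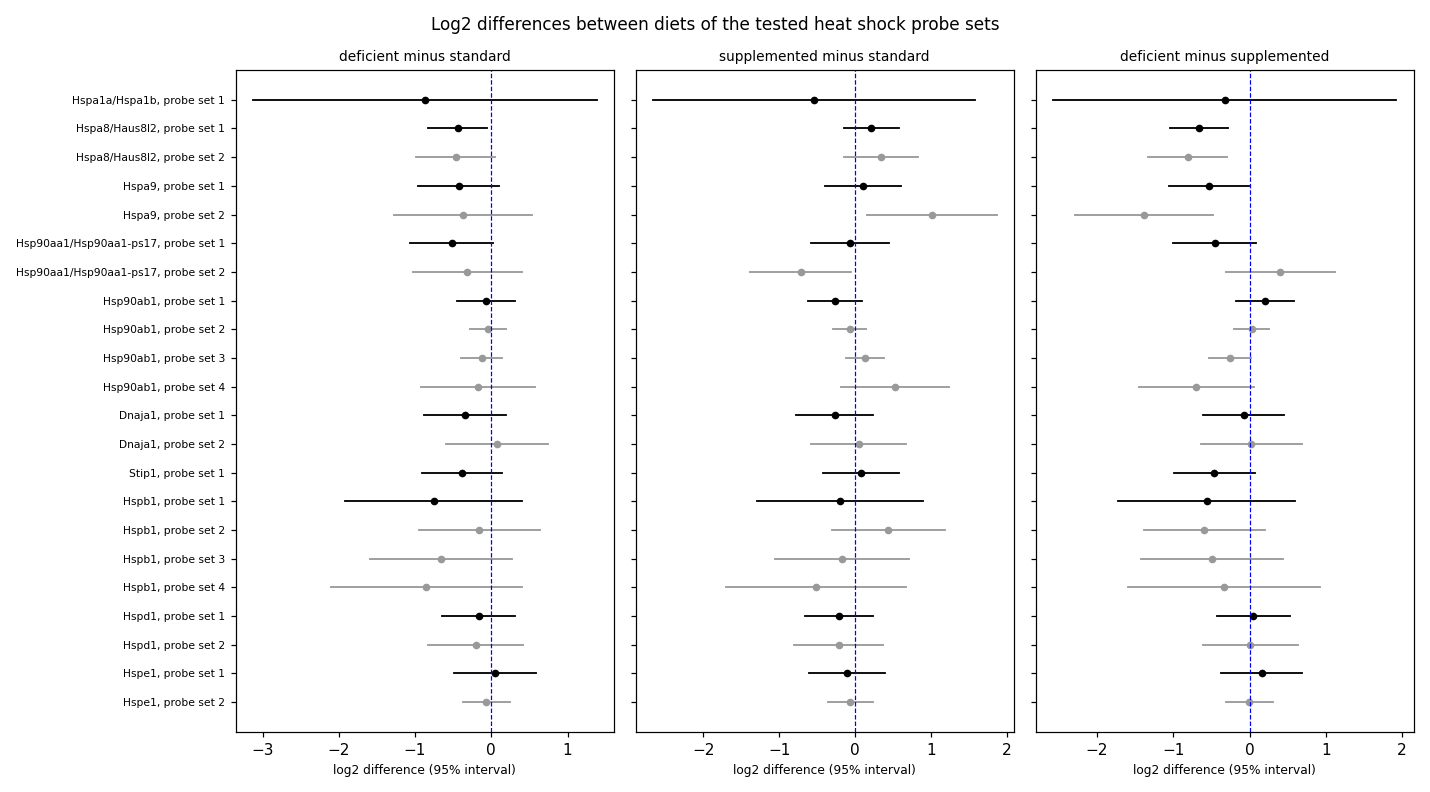
Log2 differences between diets (points) with 95% confidence intervals (lines) for the 22 tested probe sets that were given to a gene or pair, in the 3 comparisons; black marks the probe set with the highest mean signal of each gene or pair and grey the others, and each panel has its own horizontal range. The Hspa8/Haus8l2 and Hspa9 intervals of deficient minus supplemented lie below 0, that of Hspa1a/Hspa1b spans several log2 units, and no probe set passed after adjustment.

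Hspa8, the constitutive cytosolic Hsp70, was measured as Hspa8/Haus8l2 by 2 bright probe sets. Probe set 1 gave 1298, 1291, 1026 and 1080.2 units on the deficient arrays 11 to 14, against 1194, 1919, 1677, 2304 and 2396 units on the supplemented arrays 1 to 5 and 1665, 1392, 1531, 1665 and 1705 units on the standard arrays 6 to 10. All 4 deficient arrays lay below all 5 standard arrays, while on the supplemented diet array 1 lay below deficient arrays 11 and 12 and the other 4 lay above all deficient arrays. Relative to the standard diet the deficient diet was at -0.44 ± 0.18 on the log2 scale (SE; limma adjusted p = 0.999, with an unadjusted p under 0.05). Relative to the supplemented diet it was at -0.66 ± 0.18 (95% interval -1.04 to -0.28), or 1.58-fold lower (limma adjusted p = 0.254, with an unadjusted p under 0.05). Supplemented minus standard was 0.21 ± 0.17 (limma adjusted p = 0.716). So the order of the means was deficient, standard, supplemented, and no neighbouring pair passed the test.

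The second Hspa8/Haus8l2 probe set gave 994, 1009, 625 and 1395 units on the deficient diet, against 1392, 1902, 1636, 1575 and 2063 units on the supplemented diet and 1796, 1086, 1308, 1859.8 and 902 units on the standard diet. Deficient array 14 was its highest deficient value and reached into both other diets, so here the diets overlapped. Its differences were -0.47 ± 0.24 for deficient minus standard, 0.34 ± 0.23 for supplemented minus standard and -0.81 ± 0.24 for deficient minus supplemented (SE; limma adjusted p = 0.999, 0.672 and 0.264). Both probe sets therefore gave the same 3 directions. RNA quality moved with the diets: the log2 ratio of 3′ to 5′ signal of the Gapdh control, which is higher where RNA is degraded or incompletely copied, averaged 1.84 ± 0.65 on the deficient (SD over 4 arrays), 0.71 ± 0.49 on the supplemented (SD over 5 arrays) and 1.64 ± 0.61 on the standard diet (SD over 5 arrays). With this ratio as a covariate, deficient minus supplemented was -0.60 for probe set 1 and -0.20 for probe set 2. Without the 3 arrays named at the start it was -0.50 and -0.53.

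Signals of genes typical of other tissues were set beside Hspa8/Haus8l2. Summed over the 6 pancreas genes Ins1, Ins2, Clps, Amy2a3, Cela1 and Cpa1, signals ran from 405 to 653 units on the deficient diet, from 555 to 988 units on the supplemented diet and from 516 to 758 units on the standard diet. The 3 measured fat genes summed to 185 to 359 units on the deficient diet, 286 to 800.3 units on the supplemented diet and 302 to 421 units on the standard diet. This sum was almost wholly Lep (mean 321 units), with Plin1 at the floor on 12 of 14 arrays and Fabp4 on all 14. Deficient arrays 13 and 14, the lowest of their diet for Hspa8/Haus8l2 probe set 1, had the lowest sums of both lists, and supplemented array 5, the highest for that probe set, had the highest sums of both. Standard array 10 went the other way. It was the highest of its diet for that probe set and had the lowest pancreas sum of its diet, 516 units. No relation of the sums to Hspa8/Haus8l2 over the arrays was computed, and the part of these genes in the result was not tested. Hepatocyte genes (7 on the array, Alb among them) summed to 35481 to 37848 units on the deficient diet, 34164 to 38648 units on the supplemented diet and 36164 to 39885 units on the standard diet. In pieces of whole liver, fewer cells of a type and less RNA per cell cannot be told apart.

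Hspa1a and Hspa1b, the stress-inducible Hsp70 genes, gave the widest scatter of all members. Probe set 1 of Hspa1a/Hspa1b read 209, 78.0, 31.1 and 15.7 units on the deficient arrays, against 8.89, 93.9, 47.1, 97.4 and 344 units on the supplemented arrays and 184, 27.0, 52.0, 50.3 and 666 units on the standard arrays. Standard array 10 was the highest and supplemented array 1 the lowest, 74.9-fold apart, and every diet held both high and low arrays. Its SD among arrays of 1 diet, 1.82 on the log2 scale, was larger than that of 99.7% of the tested probe sets. The diets differed by less than this spread: -0.87 ± 1.06 for deficient minus standard, -0.54 ± 1.00 for supplemented minus standard and -0.33 ± 1.06 for deficient minus supplemented (SE; limma adjusted p = 0.999, 0.893 and 0.909). Each difference was smaller than its SE. The interval of deficient minus standard ran from -3.12 to 1.38, so that it held a several-fold fall, no change and a smaller rise. Without standard array 10 alone that difference was -0.18, and without all 3 arrays that stood apart it was 0.08. The 3 other Hspa1a/Hspa1b probe sets were too dim to be tested. Of these, probe set 4 was at the floor of 3.93 units on all 14 arrays, and probe set 3 read at most 11.9 units except on standard array 10, at 71.0 units.

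Hspa9, the mitochondrial Hsp70 also called mortalin, was read by probe set 1 at 211, 374, 282 and 226 units on the deficient arrays, 299.7, 362, 494, 313 and 504 units on the supplemented arrays and 263, 527, 379, 402 and 278 units on the standard arrays. Deficient array 12 lay among the values of both other diets and deficient array 13 among those of the standard diet, so the diets overlapped. The differences were -0.43 ± 0.25 for deficient minus standard, 0.11 ± 0.23 for supplemented minus standard and -0.53 ± 0.25 for deficient minus supplemented (SE; limma adjusted p = 0.999, 0.911 and 0.383). The last of these had an unadjusted limma p under 0.05. The dimmer Hspa9 probe set 2 read 19.4, 35.5, 36.5 and 69.4 units on the deficient arrays, 108, 83.0, 112, 71.8 and 107 units on the supplemented arrays and 67.6, 76.0, 25.5, 82.6 and 21.6 units on the standard arrays. Here all 4 deficient arrays lay below all 5 supplemented arrays, and the standard arrays split between both levels. The deficient diet was at -1.39 ± 0.42 relative to the supplemented diet (2.61-fold lower; limma adjusted p = 0.264, with an unadjusted p under 0.05), and supplemented minus standard was 1.01 ± 0.40 (adjusted p = 0.504). Its Gapdh ratio covariate values were -0.49 for deficient minus supplemented and 0.28 for supplemented minus standard. Among arrays of 1 diet its signal went against the Gapdh ratio (r = -0.650 and rho = -0.697 over 14 arrays, permutation p = 0.021 and 0.007, adjusted p = 0.127 and 0.134 over 24 probe sets, r = -0.615 without standard array 10 and deficient array 13). Hspa9 probe set 3 was at the floor on 11 of 14 arrays and was not tested.

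**Figure D3:**
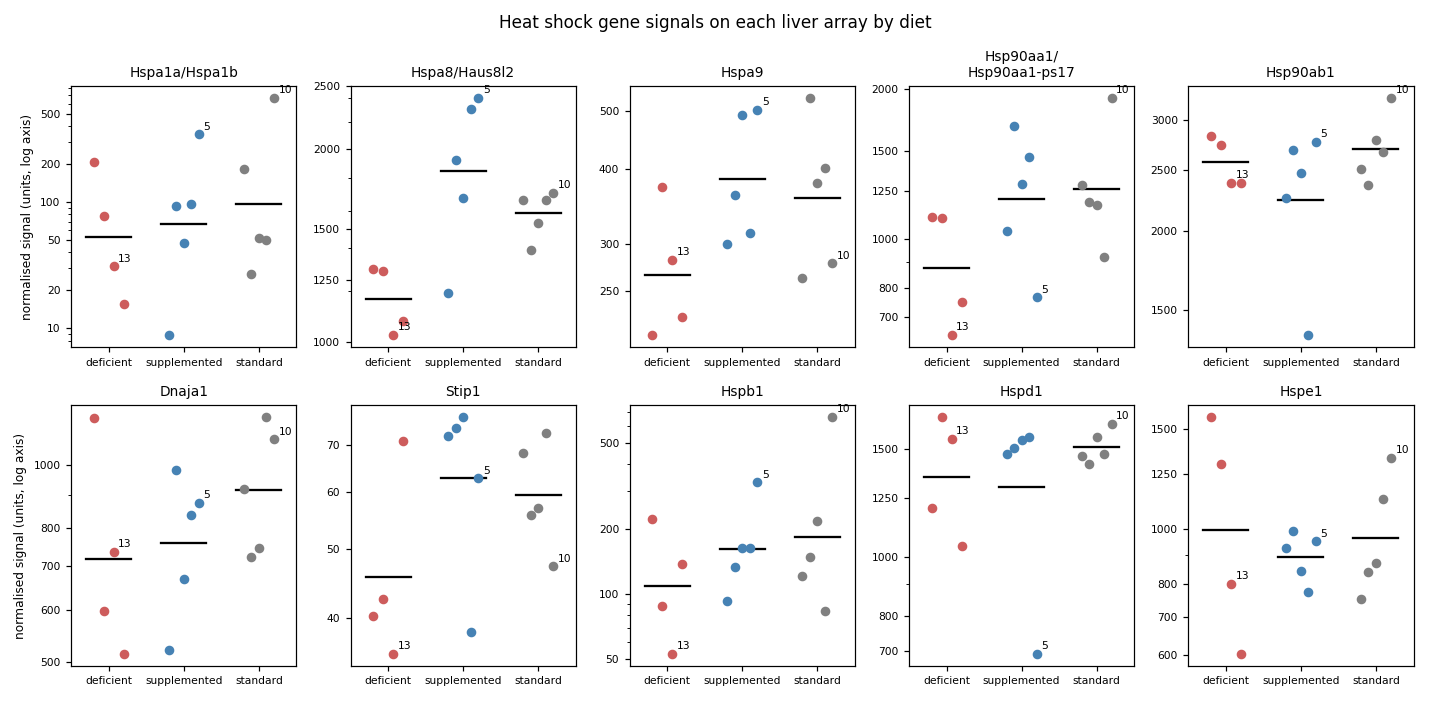
Normalised signal of probe set 1 of each of the 10 genes and pairs on every array (points, log axis in units), by diet, with the diet's geometric mean (bar); the 3 numbered arrays are those that stood apart. Hspa8/Haus8l2 is the panel in which every deficient array lies below every standard array, and Hspa1a/Hspa1b the one that spans from 8.89 to 666 units.

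Hsp90aa1, the stress-inducible cytosolic Hsp90, was measured as Hsp90aa1/Hsp90aa1-ps17. Its probe set 1 gave 1105, 1103, 644 and 749 units on the deficient diet, against 1038, 1681, 1287, 1462 and 766 units on the supplemented diet and 1285, 1187, 1169, 920.3 and 1915 units on the standard diet. Of the deficient arrays, 11 and 12 lay within the range of the other diets, and 13 and 14 lay below every other array. Deficient minus standard was -0.52 ± 0.25 (SE; limma adjusted p = 0.999), and deficient minus supplemented was -0.46 ± 0.25 (adjusted p = 0.446). For probe set 2, at 69.5 to 126 units on the deficient, 32.3 to 142 units on the supplemented and 90.5 to 156 units on the standard diet, the order of the means was another, with supplemented lowest: supplemented minus standard was -0.72 ± 0.31 (limma adjusted p = 0.522, with an unadjusted p under 0.05) and deficient minus supplemented was 0.40 ± 0.33 (adjusted p = 0.610). Probe set 1 had log2 means of 10.23 on the supplemented and 10.30 on the standard diet. That difference ran from -0.185 to 0.100 with 1 array left out at a time. Thus with all arrays the 2 probe sets agreed in sign for deficient minus standard and supplemented minus standard, and disagreed for deficient minus supplemented.

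Hsp90ab1, the constitutive cytosolic Hsp90, had 3 bright probe sets and a dim one, and none passed the test. Probe set 1 read 2823, 2735, 2385 and 2385 units on the deficient arrays, 2255, 2689, 2473, 1372 and 2767 units on the supplemented arrays and 2504, 2370.1, 2785, 2666 and 3246 units on the standard arrays. Supplemented array 4 was its lowest and standard array 10 its highest value, and the diets overlapped. Its differences were -0.07 ± 0.18 for deficient minus standard, -0.27 ± 0.17 for supplemented minus standard and 0.20 ± 0.18 for deficient minus supplemented (SE; limma adjusted p = 0.999, 0.654 and 0.646). Probe set 2 was the steadiest of all tested members, from 1543 to 2063 units over the 14 arrays and with an SD within diets of 0.13 on the log2 scale. Its deficient minus standard difference was -0.05, with a 95% interval from -0.28 to 0.19. Probe set 3 read 1534, 1613, 1353 and 1852 units on the deficient arrays, 1733, 2274, 1837, 1649 and 1998 units on the supplemented arrays and 1558, 1705, 1799 and 1933 units on standard arrays 6 to 9, with 1640.4 units on standard array 10. The diets overlapped, and deficient minus supplemented was -0.26 ± 0.13 (SE; limma adjusted p = 0.411), the opposite sign to probe set 1. The dim probe set 4 read 78.9, 81.8, 85.6 and 157 units on the deficient arrays, 211, 159.9, 173, 83.9 and 193 units on the supplemented arrays and 71.7, 131, 164, 163 and 60.7 units on the standard arrays. It was higher on 4 of 5 supplemented arrays than on any deficient array, at -0.70 ± 0.35 for deficient minus supplemented (limma adjusted p = 0.417), also the opposite sign to probe set 1. Among arrays of 1 diet probe sets 3 and 4 went against the Gapdh ratio (r = -0.567 and -0.668 over 14 arrays). Their adjusted permutation p was 0.175 and 0.127 over 24 probe sets. Probe sets 1 and 2 had r = -0.077 and 0.007. The part of RNA quality in the opposite signs was not tested.

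Of the co-chaperones, the J-protein gene Dnaja1 read 1179, 597, 737 and 514 units on the deficient arrays (probe set 1), against 521, 982, 669.6, 839 and 875 units on the supplemented arrays and 918, 723, 747, 1184 and 1094 units on the standard arrays. Both deficient array 11 and standard array 9 were near the top, and deficient array 14 and supplemented array 1 were at the bottom, so the diets overlapped throughout. The differences were -0.35 ± 0.25, -0.27 ± 0.24 and -0.08 ± 0.25 for deficient minus standard, supplemented minus standard and deficient minus supplemented (SE; limma adjusted p = 0.999, 0.741 and 0.909). Dnaja1 probe set 2 did not share the sign of any of them, at 0.07, 0.05 and 0.02 (limma adjusted p = 0.999, 0.974 and 0.980). Stip1, the adaptor between Hsp70 and Hsp90, had 1 dim probe set. It read 40.3, 42.5, 35.5 and 71.0 units on the deficient arrays, 72.0, 73.9, 76.6, 38.1 and 62.8 units on the supplemented arrays and 68.2, 55.7, 57.1, 72.7 and 47.2 units on the standard arrays. Deficient arrays 11, 12 and 13 were lower than all standard arrays, whereas deficient array 14 was among the highest. Stip1 differed by -0.38 ± 0.25 for deficient minus standard, 0.08 ± 0.23 for supplemented minus standard and -0.46 ± 0.25 for deficient minus supplemented (SE; limma adjusted p = 0.999, 0.940 and 0.431).

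Hspb1, the small heat shock protein gene also known as Hsp25 or Hsp27, had 4 probe sets of its own. Probe set 1 read 222, 88.3, 52.8 and 138 units on the deficient arrays, 92.6, 133, 164, 163 and 329.5 units on the supplemented arrays and 121, 148, 218, 83.7 and 661 units on the standard arrays. Standard array 10 was again far above the rest of its diet, supplemented array 5 was the highest of its diet, and deficient array 13 was the lowest of all. The SD within diets was 0.92 on the log2 scale, above that of 93.6% of tested probe sets, and the differences were -0.76 ± 0.55, -0.20 ± 0.51 and -0.56 ± 0.55 for deficient minus standard, supplemented minus standard and deficient minus supplemented (SE; limma adjusted p = 0.999, 0.931 and 0.675). All 4 probe sets averaged lower on the deficient than on the standard diet, at -0.16 to -0.85 on the log2 scale. Probe set 4 read 537 units on standard array 10 and 52.7 to 60.9 units on the other standard arrays, and without that array the probe set 1 difference was -0.30. Without all 3 arrays that stood apart it was 0.05. Probe set 2 did not share the high value of standard array 10. It read 107 units there, within the 74.9 to 150 units of the standard diet. For supplemented minus standard it had the opposite sign to probe sets 1, 3 and 4. Its log2 means were 7.11 on the supplemented and 6.67 on the standard diet. Among arrays of 1 diet the 6 pairs of the 4 probe sets had r between 0.172 (probe sets 2 and 4) and 0.850. These correlations are descriptive.

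The mitochondrial chaperonin genes Hspd1 and Hspe1 gave differences smaller than or close to their SE. For Hspd1, which encodes the chamber, probe set 1 read 1202, 1696, 1563 and 1042 units on the deficient arrays, 1477, 1509, 1553, 1570.0 and 692 units on the supplemented arrays and 1462, 1422, 1570.0, 1477 and 1654 units on the standard arrays. Apart from supplemented array 5 and deficient arrays 11 and 14 its values lay close together, between 1422 and 1696 units. The differences were -0.17 ± 0.22, -0.22 ± 0.21 and 0.05 ± 0.22 for deficient minus standard, supplemented minus standard and deficient minus supplemented (SE; limma adjusted p = 0.999, 0.766 and 0.937). Supplemented array 5 was also the lowest array of Hspd1 probe set 2, at 227 units, and it had the lowest Gapdh ratio. Without it the supplemented minus standard difference of probe set 1 was 0.01. For Hspe1, which encodes the lid, probe set 1 read 1575, 1301, 801 and 602 units on the deficient arrays, 927, 992, 842, 775 and 950.3 units on the supplemented arrays and 753, 841, 872, 1129 and 1335 units on the standard arrays. The deficient diet held both its highest and its lowest array. Hspe1 differences were 0.05 ± 0.25, -0.11 ± 0.24 and 0.16 ± 0.25 for deficient minus standard, supplemented minus standard and deficient minus supplemented (SE; limma adjusted p = 0.999, 0.908 and 0.816). The second Hspe1 probe set stayed between 684 and 1013 units on all arrays. Its log2 means were 9.65 on the deficient and 9.71 on the standard diet, the opposite direction to probe set 1.

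The 2 probe sets given to no gene did not pass the test in any comparison. The one with 10 symbols, Hsp90aa1 among them, read 6702 to 7678 units on the deficient, 4018 to 7678 units on the supplemented and 5452 to 7251 units on the standard diet. That of Asb2 and Hspb1 read 9.40 to 40.05 units on the deficient, 11.6 to 35.6 units on the supplemented and 19.4 to 23.1 units on the standard diet.

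Arrays of 1 diet also stood apart from each other over these genes. Set against each gene's 14-array mean, standard array 10 had the highest median deviation over the 10 genes and pairs, 0.42 on the log2 scale, and was the highest array for 4 of them. Deficient arrays 13 and 14 had the lowest medians, -0.42 and -0.54, with 1 of 10 above the mean on each, and array 13 was the lowest array for 4. Deficient arrays 11 and 12, by contrast, were near the mean (0.08 and 0.05, with 5 of 10 above it).

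**Figure D4:**
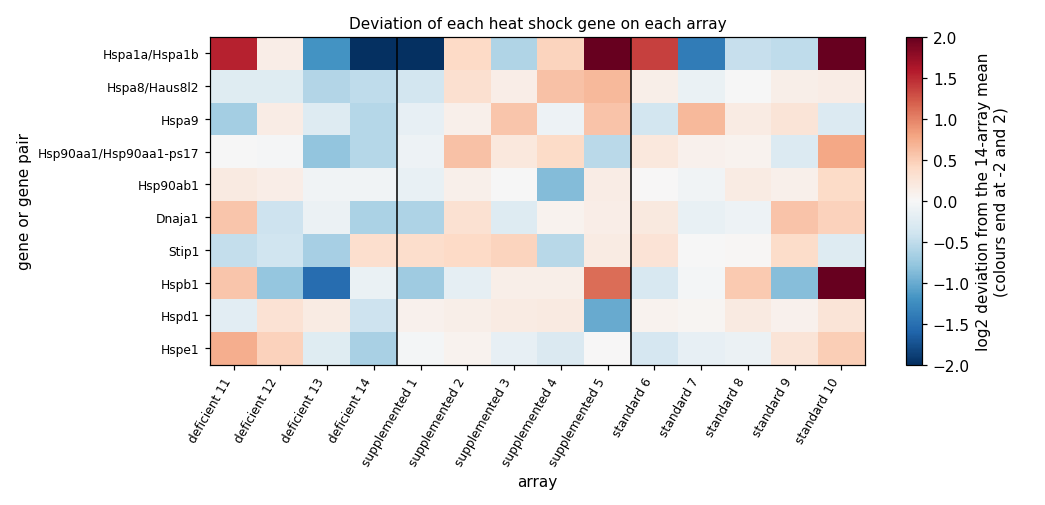
Log2 deviation of probe set 1 of each gene or pair from its 14-array mean (colour, ending at -2 and 2), with arrays in columns by diet. Deficient arrays 13 and 14 are mostly below the mean and standard array 10 mostly above it, and Hspa1a/Hspa1b and Hspb1 hold the deepest colours.

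The members were then compared with each other within diets, by correlating deviations from the diet means over the 14 arrays. Of the 45 pairs 27 had r above 0 and the median r was 0.118, where all pairs of the 3076 tested genes and gene pairs had a median of 0.0057 and 50.6% above 0. The closest pair was Hspa1a/Hspa1b with Hspa8/Haus8l2 (r = 0.808, rho = 0.814; permutation p within diets adjusted over 45 pairs = 0.0063 for r and 0.0202 for rho). With the most extreme Hspa1a/Hspa1b values left out (supplemented array 1 and standard array 10), r was 0.816. Over all 14 arrays, 0.450% of all gene pairs had an r of at least 0.808. Supplemented array 1 was lowest of its diet in both, and supplemented array 5 highest of its diet in both. The value depends on the scaling and on the probe set: r was 0.455 with arrays centred on their median and 0.414 when all tested probe sets of a gene were averaged. By the same measure the 2 Hspa8/Haus8l2 probe sets had r = 0.342 with each other. Between probe sets of 1 gene or pair r ran from -0.053 (Hsp90ab1) to 0.865 (Hspe1). The 1 other pair past the test by r was Hsp90ab1 with Hspe1 (r = 0.512, adjusted permutation p = 0.0189; rho = 0.706, adjusted permutation p = 0.0659; r = 0.586 without supplemented array 4 and standard array 10).

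The 8 other pairs with the inducible Hsp70 did not pass the test. Of these 5 had r above 0, and Stip1 (r = -0.409), Hspd1 (r = -0.246) and Hspa9 (r = -0.150) had r below 0. Dnaja1 had r = 0.721 with Hspa1a/Hspa1b (rho = 0.648, adjusted permutation p = 0.119 and 0.339) and r = 0.638 with Hspa8/Haus8l2 (rho = 0.634, adjusted permutation p = 0.123 and 0.339). Hspb1 had r = 0.688 with Hspa1a/Hspa1b (rho = 0.565, adjusted permutation p = 0.123 and 0.350), which was 0.328 without the 3 arrays that stood apart. Hspd1 and Hspe1, whose annotated starts share a promoter region, had r = 0.118. Of the genes in these pairs, Hspa8, Dnaja1, Hspd1 and Hspe1 carried the 3-part element in their promoter windows. Hspa9, Hsp90ab1, Stip1 and Hspb1 did not, and the Hspa1b and Hsp90aa1 promoters were not analysed here.

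**Figure D5:**
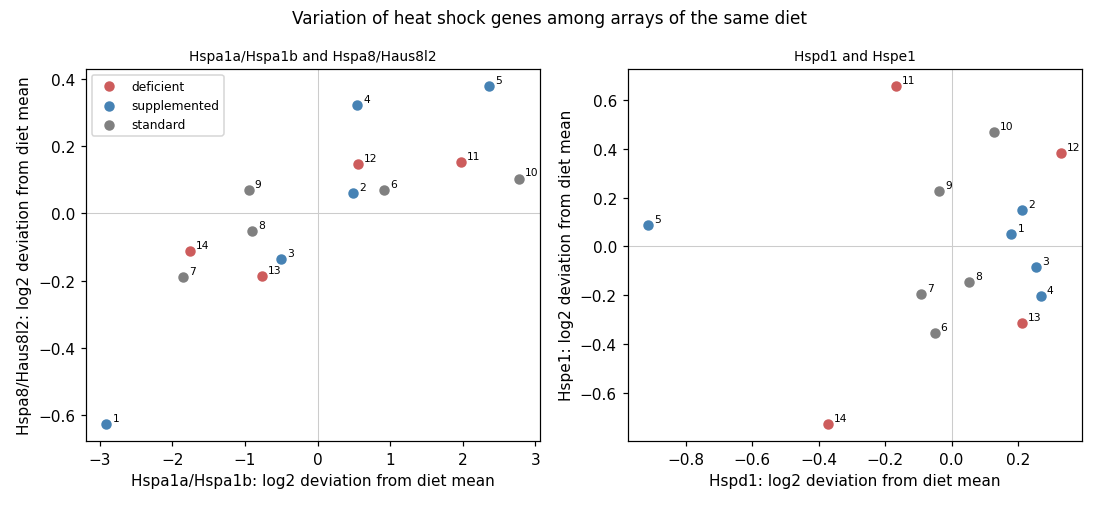
Log2 deviations from the diet mean on the 14 arrays (numbered points, coloured by diet) for Hspa1a/Hspa1b against Hspa8/Haus8l2 (left) and Hspd1 against Hspe1 (right). The left panel rises from supplemented array 1 to supplemented array 5 (r = 0.808), and the right panel shows no such slope (r = 0.118).

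Likeness to all other tested genes was listed by the same r over 14 arrays, as a description without a p. Each list names the 3 of 3075 genes with the highest r. For Hspa1a/Hspa1b these were Stx5 (r = 0.914), Lpl (0.889) and Ppp1r9b (0.880), and Hspa8/Haus8l2 came at rank 21. For Hspa8/Haus8l2 they were Slc18a3 (0.869), Slc26a1 (0.864) and the insulin gene Ins1 (0.857), and Hspa1a/Hspa1b came at rank 13. For Dnaja1 they were Apom (0.828), Trip10 (0.797) and Ptbp1 (0.794), with Hspa1a/Hspa1b at rank 18. For Hspb1 they were Rap1b (0.875), Itga2b (0.837) and Cryab (0.837), which encodes another small heat shock protein. Hspa9 came closest to Ptgr3 (0.823), Champ1 (0.819) and Slc25a23 (0.795), and Stip1 to Fbp1 (0.908), Nckap1 (0.875) and Hsd17b4 (0.866). Hsp90aa1/Hsp90aa1-ps17 came closest to Cdc42 (0.853), Fntb (0.853) and Gnb1 (0.851), and Hsp90ab1 to Lct (0.882), Sh3gl1 (0.869) and Ndufs7 (0.841). Hspd1 came closest to Gsta4 (0.927), Scamp1 (0.924) and Pomp (0.920), and Hspe1 to Msx2 (0.903), the proteasome subunit gene Psmb5 (0.895) and Irf3 (0.868). No member was among the 3 closest genes of another member. Genes on the same arrays share array quality, which these r values include.

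RNA quality was set beside the diets and the members. By exact permutation test the Gapdh ratio of the deficient diet differed from that of the supplemented diet by 1.13 on the log2 scale (two-sided p = 0.0159, adjusted p = 0.0476 over 6 comparisons) and from that of the standard diet by 0.21 (p = 0.595, adjusted p = 0.595), and supplemented minus standard was -0.93 (p = 0.0159, adjusted p = 0.0476). The smallest p this exact test allows is 0.00794. The beta-actin ratio averaged 1.85 ± 0.82 on the deficient (SD over 4 arrays), 0.96 ± 0.20 on the supplemented (SD over 5 arrays) and 1.52 ± 0.71 on the standard diet (SD over 5 arrays), with exact permutation p = 0.516, 0.103 and 0.0476 for deficient minus standard, supplemented minus standard and deficient minus supplemented (adjusted p = 0.595, 0.155 and 0.0952). Among arrays of 1 diet none of the 10 genes and pairs followed the Gapdh ratio after adjustment over 10. The closest by r were Hspd1 and Stip1. Hspd1 had r = 0.658 and rho = 0.565 (adjusted permutation p = 0.146 and 0.174, r = 0.764 without standard array 10 and deficient array 13). Stip1 had r = -0.617 and rho = -0.587 (adjusted permutation p = 0.156 and 0.174, r = -0.497 without those arrays). Hsp90aa1/Hsp90aa1-ps17 had r = 0.553 and the largest rho, 0.596 (adjusted permutation p = 0.194 and 0.174, r = 0.803 without those arrays). Hspa8/Haus8l2 probe set 1 had r = -0.109 (rho = -0.040), and its probe set 2 had r = -0.792 (rho = -0.688, adjusted permutation p = 0.074 and 0.134 over 24 probe sets, r = -0.580 without the same arrays).

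The wider chaperone system was described from 7 lists of 75 genes, of which 32 had a probe set of their own symbol and 28 were tested. limma called 0 of 28 in each comparison. On the deficient diet 11 were higher and 17 lower than on the standard diet (median -0.09 on the log2 scale, 0 at an unadjusted p under 0.05). On the supplemented diet 10 were higher and 18 lower than on the standard diet (median -0.16, 2 higher and 3 lower at an unadjusted p under 0.05), and for deficient minus supplemented 18 were higher and 10 lower (median 0.07, 3 higher and 1 lower at an unadjusted p under 0.05). Over all 5133 probe sets, 49.9%, 52.2% and 47.5% were lower in the 3 comparisons in this order, and 3.04%, 8.88% and 13% had an unadjusted p under 0.05. So for deficient minus supplemented the rest of the system had a median of the opposite sign to that of the members, a difference that was not tested. By list, deficient minus standard was higher for 0 of 1 genes of Hsf1 and its relatives, 2 of 3 further Hsp70 and Hsp110 genes, 2 of 7 J-protein genes, 3 of 7 co-chaperone genes, 0 of 4 small heat shock protein genes, 1 of 1 genes of the cytosolic chaperonin TRiC and 3 of 5 mitochondrial genes. Hsf1 itself, the master factor of the response, was at -0.24 ± 0.24 for deficient minus standard, 0.02 ± 0.22 for supplemented minus standard and -0.26 ± 0.24 for deficient minus supplemented (SE; limma adjusted p = 0.999, 0.987 and 0.647).

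The genes with the smallest p of these lists in each comparison did not pass either. For deficient minus standard they were the lens and small heat shock protein gene Cryaa at -0.44 ± 0.25 and Timm44, which docks Hspa9 at the mitochondrial import channel, at -0.63 ± 0.38 (SE; limma adjusted p = 0.999 for both). For supplemented minus standard they were Fkbp4, an Hsp90 partner of steroid receptors, at -0.89 ± 0.28 and Trap1, the mitochondrial Hsp90, at -0.53 ± 0.17 (limma adjusted p = 0.474 for both). For deficient minus supplemented they were Trap1 at 0.78 ± 0.18 (limma adjusted p = 0.218) and St13, a partner of Hsp70, at -1.08 ± 0.39 (adjusted p = 0.307). Chaperones of the endoplasmic reticulum, 10 tested genes with Hspa5 among them, were higher and lower in 4 and 6 for deficient minus standard, 6 and 4 for supplemented minus standard and 3 and 7 for deficient minus supplemented. limma called 0 of the 10 each time, with 0, 1 and 1 at an unadjusted p under 0.05. Of 4 tested genes that often accompany protein damage (Hmox1, Atf3, Ddit3 and Jun), 2 were higher for deficient minus standard, 2 for supplemented minus standard and 3 for deficient minus supplemented, and limma called 0 of 4 each time, with 0, 1 and 1 at an unadjusted p under 0.05.

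Sums for other cell types overlapped between diets, except those of bile duct genes for deficient against standard. Kupffer cell and macrophage genes (4 of 7 on the array) summed to 974 to 1151 units on the deficient, 973 to 1611 units on the supplemented and 882 to 1121 units on the standard diet, and endothelial genes (3 of 6) to 79.2 to 116 units on the deficient, 68.3 to 161 units on the supplemented and 58.8 to 137 units on the standard diet. Stellate cell and fibroblast genes (6 of 6) summed to 246 to 348 units on the deficient, 247 to 391 units on the supplemented and 229.8 to 393 units on the standard diet, and blood cell genes (3 of 6) to 2696 to 4035 units on the deficient, 2041 to 4244 units on the supplemented and 2304 to 2845 units on the standard diet. Bile duct genes (4 of 5) summed to 79.0 to 162 units on the deficient, 61.8 to 127 units on the supplemented and 53.8 to 78.5 units on the standard diet, with every deficient array above every standard array. Muscle genes (4 of 5, Acta1 at the floor on all arrays) summed to 19.9 to 46.5 units on the deficient, 31.3 to 57.8 units on the supplemented and 25.4 to 46.8 units on the standard diet. Their part in the values of the heat shock genes was not tested.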

How the data were processed

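The authors deposited linear intensity values, 1 signal per probe set and array, for 14 arrays. The signal software and genome build were not given in the sources used here, and no detection calls were used. Targets were labelled from roughly 5 µg of total RNA, per the labels. Checked on the deposited intensities, every array had the same mean of 150.3 units once 2% of signals were trimmed at each end, while array medians differed by up to 1.91 times.

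Signals of the 8740 probe sets that are not controls were quantile normalised on the log2 scale (59 controls left out), set to a floor at the pooled 20th percentile (3.93 units) and kept where their mean exceeded the pooled 40th percentile (3.83 as log2). This left 5133 probe sets. All differences are on the log2 scale of these floored values and understate changes of dim probe sets. Diets were compared with limma 3.58.1 in R 4.3.3 (lmFit, eBayes with a trend) in 1 model, two-sided, with calls made where the p adjusted by Benjamini-Hochberg was under 0.05. Confidence intervals are 95%. Pairwise correlations used deviations from diet means and 100000 permutations within diets (Python 3.11.15, scipy 1.17.1). The fit and the correlations were tested on simulated data.

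Symbols came from the platform annotation, which can be old, and 7006 probe sets had 1 symbol, 308 several and 1426 none. All members are named with every probe set. Of the wider chaperone lists the 2 genes with the smallest p per comparison are named, as are the 3 genes most like each member, while Hsf1, the members of the 4-gene stress list and Hspa5 were named outside that rule. The members, lists and tests were chosen with earlier results of these data known. A probe set named Hspa2, whose symbol is listed as a synonym of Hspa1b, has its own gene entry and was left out. Alternatives covered scaling, floor, filter, model, RNA quality covariates, arrays left out and the probe set used. The number of arrays limits the precision, and without detection calls it is unknown whether a dim signal lay above background.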

Additional observations from a re-analysis of the deposited data

Results flagged for a closer look

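Each diet of each of the 22 tested probe sets given to a gene or pair, 66 groups in all, was searched for a single array far from the others of its diet (gap to the nearest array divided by the whole range of the diet on the log2 scale, against Dixon's 95% critical value). This found 4 arrays, where chance gives about 1 in 20 groups. For Hspb1 probe set 4, standard array 10 was the highest at 537 units with the next at 60.9 units (ratio 0.937). For Hspd1 probe set 1, supplemented array 5 was the lowest at 692 units with the next at 1477 units (ratio 0.925). Hsp90ab1 probe set 4 was highest on deficient array 14, at 157 units with the next at 85.6 units (ratio 0.881). Stip1 was lowest on supplemented array 4, at 38.1 units with the next at 62.8 units (ratio 0.715). Of the 4 arrays, supplemented array 5 and standard array 10 are among the 3 that stood apart in earlier work on these data.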

How the results depend on the processing

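Over 26 alternatives (scaling, floor, filter, model, RNA quality covariates, probe set choice and arrays left out) limma called 0 of the 24 tested probe sets of these genes in every comparison. The lowest adjusted p of a gene or pair, represented by probe set 1 or by the mean of its probe sets, was 0.135. Second probe sets came lower for deficient minus supplemented. In the 12 alternatives other than leaving out 1 array, limma adjusted p fell to 0.096 for Hspa9 probe set 2 and 0.107 for Hspa8/Haus8l2 probe set 2. Of 780 recomputed differences of a gene or pair, 722 kept their direction and 58 reversed, none of them called before or after. No paired analysis was possible because array numbers run on from diet to diet and no number is shared. Centring arrays on their median in place of quantile normalisation moved the median of all probe sets to 0.058 for deficient minus standard, -0.108 for supplemented minus standard and 0.166 for deficient minus supplemented, so that differences there are to be read against these shifts. The cause of the reversals and moved counts below was not tested, and most concern differences smaller than their SE.

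Over all 5133 probe sets, deficient minus supplemented and the F-test each had 1 call. Both had 0 with values as deposited, with the filter at the 60th percentile, with the Gapdh or the beta-actin ratio as a covariate and without the 3 arrays that stood apart, both had 2 with no filter, and deficient minus supplemented had 0 with only those diets in the fit. Deficient minus standard, with 0 calls, had 1 with no filter, and supplemented minus standard, also with 0, had 1 with array weights and 1 without the trend. The beta-actin covariate left 4 of 10 genes and pairs lower for supplemented minus standard, against 7. The median over the 10 for deficient minus supplemented was -0.144 without the 3 arrays, against -0.393. Without those arrays the Gapdh ratio difference was -0.466 for supplemented minus standard and 0.647 for deficient minus supplemented (exact permutation p = 0.0571 for each).

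Reversed differences with arrays centred on their median were Hspa9 at -0.058 for supplemented minus standard and Dnaja1 at 0.182 for deficient minus supplemented. With array weights they were Hsp90aa1/Hsp90aa1-ps17 at 0.094 for supplemented minus standard, and Hspa1a/Hspa1b at 0.523 and Hspd1 at -0.042 for deficient minus supplemented. With the Gapdh covariate they were, for supplemented minus standard, Hspa1a/Hspa1b at 0.138, Hspa9 at -0.130, Hsp90aa1/Hsp90aa1-ps17 at 0.299, Stip1 at -0.289, Hspd1 at 0.158, Hspe1 at 0.031 and Hspa8/Haus8l2 probe set 2 at -0.155, and for deficient minus supplemented Hspd1 at -0.408 and Hspe1 at -0.014. With the beta-actin covariate they were Hspe1 at -0.027 for deficient minus standard, then for supplemented minus standard Hspa1a/Hspa1b at 0.256, Hsp90aa1/Hsp90aa1-ps17 at 0.015, Stip1 at -0.156, Hspb1 at 0.124 and Hspe1 at 0.017, and for deficient minus supplemented Hspd1 at -0.038 and Hspe1 at -0.044. Without the 3 arrays they were, for deficient minus standard, Hspa1a/Hspa1b at 0.081, Hsp90ab1 at 0.034 and Hspb1 at 0.052, for supplemented minus standard Hspa9 at -0.083, Hsp90aa1/Hsp90aa1-ps17 at 0.250, Stip1 at -0.0063, Hspb1 at 0.0058 and Hspd1 at 0.043, and for deficient minus supplemented Hspa1a/Hspa1b at 0.522, Hspb1 at 0.046 and Hspd1 at -0.246. With all probe sets of a gene averaged, Hspe1 was at -0.0087 for deficient minus standard, and Hsp90ab1 was at 0.079 for supplemented minus standard and -0.183 for deficient minus supplemented.

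With 1 array left out at a time, calls over all probe sets ran from 0 to 2 for supplemented minus standard, from 0 to 4 for deficient minus supplemented and from 0 to 3 for the F-test. The genes and pairs lower for supplemented minus standard ran from 4 (without standard array 10) to 8, and the median over them for deficient minus supplemented from -0.462 to -0.148 (without deficient array 14, and -0.152 without deficient array 13). The same median for supplemented minus standard, -0.153 with all arrays, was 0.011 without standard array 10, -0.0039 without supplemented array 1 and -0.061 without supplemented array 5. The Gapdh ratio difference ran from -0.074 (without deficient array 13) to 0.461 for deficient minus standard and from 0.853 to 1.372 for deficient minus supplemented, where its exact permutation p exceeded 0.05 without supplemented arrays 1, 2, 3 or 5 or deficient array 13. Differences that changed sign ran, for deficient minus standard, from -0.171 to 0.290 for Hspe1. For supplemented minus standard they ran from -1.143 to 0.184 for Hspa1a/Hspa1b, -0.0066 to 0.244 for Hspa9, -0.185 to 0.100 for Hsp90aa1/Hsp90aa1-ps17, -0.0052 to 0.259 for Stip1, -0.481 to 0.264 for Hspb1, -0.285 to 0.011 for Hspd1 and -0.197 to 0.0074 for Hspe1. For deficient minus supplemented they ran from -1.054 to 0.265 for Hspa1a/Hspa1b, -0.315 to 0.085 for Dnaja1, -0.177 to 0.175 for Hspd1 and -0.061 to 0.399 for Hspe1.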
